A study of Saccharomyces cerevisiae with 2 samples.

Results

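The PIR family of budding yeast, Saccharomyces cerevisiae, comprises 5 genes for cell wall proteins: PIR1 (YKL164C), HSP150 (YJL159W, also called PIR2), PIR3 (YKL163W), CIS3 (YJL158C, also called PIR4) and PIR5 (YJL160C). They were chosen as a family, by these open reading frame identifiers and with no threshold on their values, from 5676 genes on the arrays. Each had 1 array feature, and 4 of the 5 had a value in both comparisons. PIR5 had a value with alpha factor and none in the deletion comparison.

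PIR proteins carry internal repeats, from which the family takes its name. They have no glycosylphosphatidylinositol (GPI) anchor and are attached to the beta-1,3-glucan of the wall through an alkali-sensitive bond at glutamines of the repeats. They are secreted, O-mannosylated and cut by the Kex2 protease on the way. Several PIR genes are known targets of the cell wall integrity pathway, in which the mitogen-activated protein kinase (MAPK) Slt2 acts on the transcription factor Rlm1, and PIR1, HSP150 and PIR3 are known to peak around the end of mitosis and early G1.

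RNA of strain BY4741 and of a strain lacking MSG5 was compared on two-colour arrays. MSG5 encodes a phosphatase that acts on MAPKs. The deletion comparison set untreated msg5 delta cells against untreated wild type, both grown in YPD at 24 °C and 200 rpm for 2 h 30 min after dilution to an optical density of 0.2 and collected 2 h later. The alpha factor comparison set msg5 delta cells with the mating pheromone alpha factor against msg5 delta cells without it, after 4 h of growth and a further 90 min, so no culture in it carried MSG5. The labels print the pheromone concentration as 50 mM, and do not give the deletion allele or the number of clones. The authors hybridised 4 arrays per comparison, from 2 biological samples and with the dyes exchanged, and condensed them to 1 value per feature.

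That value is a log2 ratio without a spread between replicates, so no difference below was tested, and precision is limited by how many arrays there were. Genes with several features gave the only scale of measurement differences. The median gap in log2 between features of the same gene was 0.20 for the deletion (25 genes) and 0.29 for alpha factor (24 genes). Such features share arrays and RNA, so this gap leaves out variation between cultures and between hybridisations. A difference beyond it may still lie within replicate error. The table had values for 4969 genes in the deletion comparison (median -0.07) and 4597 with alpha factor (median -0.05). MSG5 stood lowest of all genes in the deletion comparison, at -2.51. It also had a value with alpha factor (-0.09), where no culture carried it, so a value alone does not show that a transcript was detected. The direction of the alpha factor values is likely treated over untreated, because 7 of 7 genes known to be induced by the pheromone lay above 0. Their base is less certain than that of the deletion values, and folds given for alpha factor hold only if it is 2. Since PIR coding sequences resemble each other and the probe sequences were not used here, a contribution of 1 PIR transcript to another's spot was not tested.

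In the deletion all 4 measured PIR genes had values above 0 and above the median of all genes, but to unequal extents. HSP150 and PIR3 were higher in the deletion, by 1.55-fold and 1.43-fold, CIS3 was higher by 1.16-fold, and PIR1 was nearly level at 1.02-fold. No PIR gene reached 2-fold in either direction. Past 2-fold, 0.785% of all genes were higher and 0.262% lower. In these bulk cultures, a shift in the share of cells at a stage of the cell cycle and a shift in RNA per cell cannot be told apart.

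HSP150, a secreted heat shock glycoprotein of the wall, had a log2 ratio of 0.63 in the deletion comparison. Of all 4969 genes, 97.5% had lower values and 120 had higher ones. It was the only PIR gene past 1.5-fold, a change that 2.84% of all genes reached upwards and 3.08% downwards. PIR3 had a log2 ratio of 0.51, with 96.2% of genes below it. CIS3, an O-mannosylated wall protein, stood at 0.22, with 88.8% of genes below it. PIR1 stood at 0.03, inside the quartiles of all genes (-0.21 to 0.07), with 68.6% of genes below it. HSP150, PIR3 and CIS3 lay above the upper quartile.

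The family median in the deletion comparison was 0.36 over 4 genes, against -0.07 for all genes, and the range from PIR1 to HSP150 was 0.60. Of the 6 pairs of PIR genes, 4 differed by more than 0.20, the typical difference between features of a single gene. In the order of the values, HSP150 and PIR3 were separated by 0.12 and CIS3 and PIR1 by 0.19, neither beyond that scale, whereas PIR3 and CIS3 were separated by 0.29. The largest gap between features of a gene was 0.61, which no PIR pair exceeded.

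**Figure D1:**
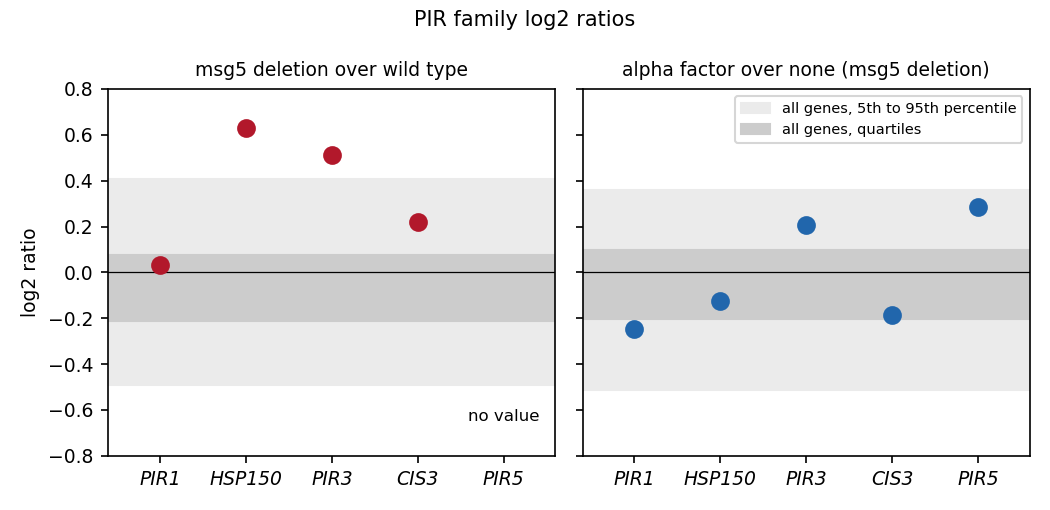
Log2 ratios (vertical axis) of the PIR genes, with the deletion comparison on the left and the alpha factor comparison on the right; each point is the authors' condensed value, there are no error bars because no replicate values were used, and the grey bands show the quartiles and the 5th to 95th percentiles of all genes. HSP150 at 0.63 and PIR3 at 0.51 lie above the band in the deletion, whereas all 5 genes lie within it with alpha factor.

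With alpha factor in msg5 delta cells, the PIR genes lay on both sides of 0 and all values were small. PIR5 and PIR3 stood above 0, at 1.22-fold and 1.15-fold. PIR1, CIS3 and HSP150 stood below it, at 1.19-fold, 1.14-fold and 1.09-fold lower. None reached 2-fold, where 0.37% of all genes were higher and 0.261% lower, and none reached 1.5-fold, where 1.46% were higher and 3.15% lower.

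PIR5, the least characterised member, had the highest log2 ratio of the family with alpha factor, 0.28, with 92.4% of 4597 genes below it. It had no value in the deletion comparison, and whether its signal rose above background was not tested. PIR3 followed at 0.20, with 87.4% below. HSP150 stood at -0.12 (37.2% below) and CIS3 at -0.19 (27.5% below), both within the quartiles of all genes (-0.21 to 0.10). PIR1 was the lowest at -0.25, with 19.6% of genes below it. The median over the 5 genes was -0.12, against -0.05 for all genes. It stood above 0 without PIR1 or CIS3 (0.04 each) and without HSP150 (0.008).

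Of the 10 pairs of PIR genes with alpha factor, 6 differed by more than 0.29, the typical difference between features of a gene in that comparison. Along the order of the values, PIR5 and PIR3 were 0.08 apart, HSP150 and CIS3 0.06 and CIS3 and PIR1 0.06. The only step beyond that scale was between PIR3 and HSP150, at 0.33. The largest gap between features of a gene was 0.68, more than any of these pairs differed by. PIR1 had the lowest value of the 4 measured genes in the deletion, where PIR5 had no value, and of all 5 with alpha factor. It lay within the typical gap from CIS3 in both comparisons and from HSP150 with alpha factor. If the sign were turned, PIR1 would be the highest with alpha factor.

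Side by side, PIR3 was the only one of the 4 members with both values to stand above 0 in both comparisons (0.51 and 0.20). HSP150 had 0.63 in the deletion and -0.12 with alpha factor, CIS3 0.22 and -0.19, and PIR1 0.03 and -0.25. The deletion value exceeded the alpha factor value for all 4, by 0.75 for HSP150, 0.41 for CIS3, 0.31 for PIR3 and 0.28 for PIR1, while the median of that difference over 4378 genes was -0.01. For HSP150, 97.0% of these genes had a lower difference, against 88.1% for CIS3, 83.4% for PIR3 and 81.5% for PIR1. If the alpha factor ratios ran the opposite way, the difference would be 0.51 for HSP150, 0.72 for PIR3, 0.03 for CIS3 and -0.22 for PIR1. It also rests on base 2 in both columns, and the cultures differed in growth and collection times. Untreated msg5 delta RNA is the numerator of the deletion ratio and, if the direction holds, the denominator of the alpha factor ratio. A high level in such RNA would therefore widen the difference, and its part was not tested.

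**Figure D2:**
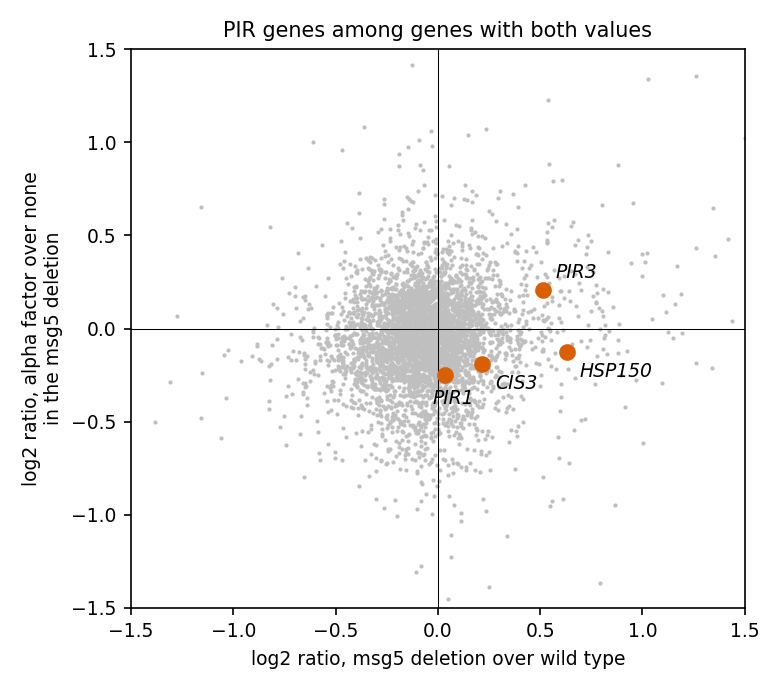
Log2 ratio in the deletion comparison (horizontal axis) against log2 ratio with alpha factor (vertical axis) for genes with both values, PIR genes as large orange points and other genes as small grey points; 14 genes beyond 1.5 or -1.5 fall outside the axes. All 4 PIR genes lie right of 0, with PIR3 above and PIR1, CIS3 and HSP150 below the horizontal line.

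The genes with the nearest pair of log2 ratios, by Euclidean distance over the 2 comparisons, were PRB1, a vacuolar protease, BRR2, an RNA helicase of the spliceosome, and FBP26, a fructose-2,6-bisphosphatase, for HSP150, at distances of 0.02, 0.03 and 0.05. For PIR3 they were YJR029W, GPI18, a mannosyltransferase of GPI anchor synthesis, and YIL165C. For CIS3 they were BAP2, an amino acid permease, POS5, a mitochondrial NADH kinase, and UPS2. For PIR1 they were PRM15, PSG1 and ICT1. Within a distance of 0.1 lay 8 genes for HSP150, 17 for PIR3, 98 for CIS3 and 244 for PIR1. Such counts fall with distance from the bulk of all genes. No PIR gene was among the 3 nearest of another. These distances are smaller than the typical gaps between features of a gene, 0.20 and 0.29, so which genes lie nearest is not resolved.

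The 5 genes lie at 2 loci. PIR1 and PIR3 are neighbours on chromosome XI, and PIR5, HSP150 and CIS3 follow each other on chromosome X. Their systematic names, ending in W or C for the strand, place PIR1 and PIR3 in divergent orientation, as are PIR5 and HSP150. PIR1 and PIR3 differed by 0.48 in the deletion comparison and by 0.45 with alpha factor. Across the genome, neighbouring divergent genes differed by a median of 0.19 in each comparison. Genes that are not neighbours were not compared in this way. A difference at least as large as that of PIR1 and PIR3 was found in 13.9% of 1000 such pairs in the deletion comparison and in 16.1% of 869 with alpha factor. PIR5 and HSP150 differed by 0.41 with alpha factor, a size reached by 19.7% of pairs.

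Genes beside the loci had values unlike those of the PIR genes at some positions and close to them at others. In the deletion comparison KDX1, which encodes a kinase related to Slt2 and lies past YKL162C from PIR3, was higher by 1.10, while YKL162C stood at -0.06 and MCD4, a GPI anchor synthesis gene on the other side of the PIR1 locus, at -0.24. With alpha factor these genes had values of 0.18, -0.27 and 0.12. On chromosome X, FMP33, beside PIR5, stood at 0.70 in the deletion and at -0.49 after alpha factor. FAR1, an inhibitor of cyclin-dependent kinase in mating, lies beside CIS3 and had values of 0.19 and 0.15. SSY5, an amino acid sensor protease, had values of 0.18 and -0.04. In the deletion comparison FAR1 and SSY5 were close to CIS3 (0.22), and FMP33 was close to HSP150 (0.63). A transfer RNA gene near each locus had no value.

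**Figure D3:**
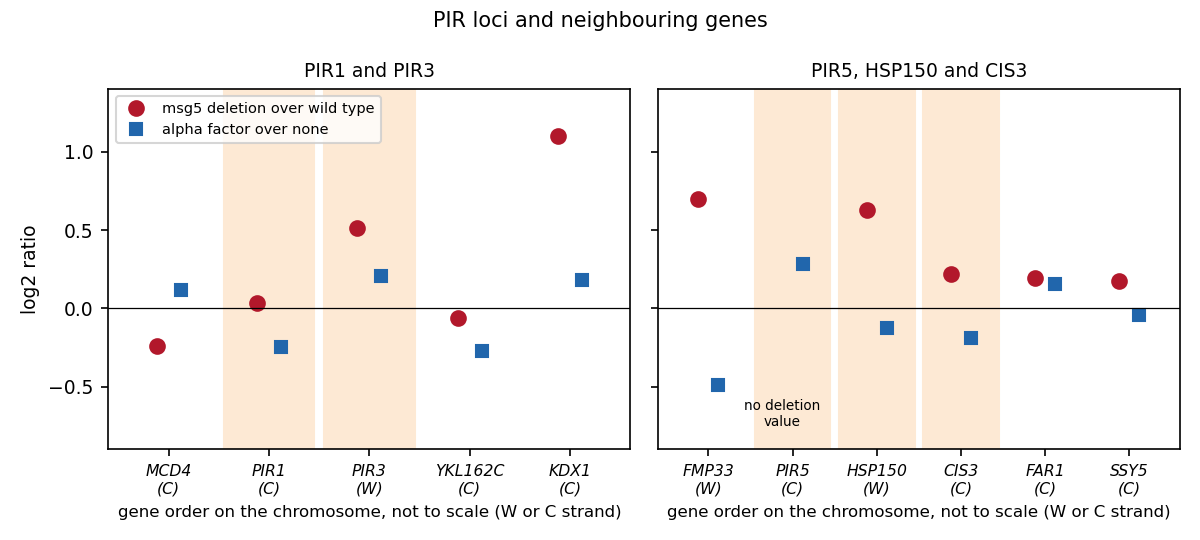
Log2 ratios (vertical axis) of the PIR genes, on shaded ground, and of their protein-coding neighbours in chromosomal order (horizontal axis, not to scale), with circles for the deletion comparison and squares for alpha factor. The divergent neighbours PIR1 at 0.03 and PIR3 at 0.51 stand apart in the deletion, and KDX1 at 1.10 is the highest gene shown.

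Other known output genes of the cell wall integrity pathway had a median of 0.79 in the deletion, against 0.36 for the PIR genes, with values of both lists overlapping and no test of the difference. Of 17 such genes outside the family, all measured, 5 were at least 2-fold higher, 12 at least 1.5-fold higher and none at least 1.5-fold lower. Over all genes these shares were 0.785%, 2.84% and 3.08%. The shares over all genes given above for both comparisons apply to the lists below too. All these lists were chosen with earlier results of these data known. PRM5, a pheromone-regulated membrane protein, was 2.83-fold higher. SLT2 stood at a log2 ratio of 1.42, NCW2 at 1.19, KDX1 at 1.10 and YPS3, a yapsin protease, at 1.10. The lowest were GSC2, an alternative glucan synthase subunit, at -0.33, and CHS3, a chitin synthase, at -0.05. HSP150 and PIR3 thus lay below the median of this list, near GFA1 (0.61), CCW14 (0.59), PST1 (0.59), CRH1 (0.56) and FKS1 (0.49). With alpha factor the same list had a median of 0.19, with 1 gene at least 2-fold higher (PRM5, 1.02), CRH1 next at 0.55, and PST1 (-0.58) and YPS3 (-0.29) lowest.

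Components of the pathway, of which 19 of 22 were measured in the deletion comparison, had a median of 0.01, with 1 at least 2-fold higher (SLT2), 5 at least 1.5-fold higher and none at least 1.5-fold lower. PTP2, a phosphatase of MAPKs, stood at 0.90 and RLM1 at 0.79. Among the sensors MTL1 stood at 0.76 and MID2 at 0.62, both past 1.5-fold, WSC1 at 0.01, WSC2 at -0.03 and WSC3 at -0.35. SLT2, RLM1 and PTP2 belong to the list of output genes too. BCK1 and MKK2, kinases upstream of Slt2, both stood at -0.24. With alpha factor the median over 18 components was -0.03 and none passed 1.5-fold. SLT2 (0.48) and MKK2 (0.47) were highest, and SAC7, which restrains Rho1, (-0.57) and the sensor WSC2 (-0.56) lowest.

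GPI-anchored mannoproteins, the other class of bound wall protein, covered a wider range of values than the PIR family. Their list is longer, and a range tends to grow with the number of genes. In the deletion comparison 4 of 23 measured genes were at least 2-fold higher, 8 at least 1.5-fold higher, 1 at least 2-fold lower and 2 at least 1.5-fold lower, with a median of 0.11. The mating adhesins FIG2 (2.82) and AGA1 (2.02), NCW2 and SPI1 (1.16) were the higher genes, and FIT3 (-1.38) and FIT2 (-0.87), mannoproteins of iron retention, the lower ones. With alpha factor the median over 22 genes was 0.08, with 2 at least 2-fold higher (FIG2 at 1.52 and AGA1 at 1.39), 3 at least 1.5-fold higher and none at least 1.5-fold lower. The lowest were PST1 and FIT3 (-0.50).

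Of 16 genes of O-mannosylation and Kex2 processing, steps that PIR proteins undergo during secretion, none passed 1.5-fold in either comparison. Their medians were -0.06 and -0.15. Whether each of them serves PIR proteins was not examined. The mannosyltransferase genes PMT6 (0.39) and PMT3 (0.26) were highest in the deletion comparison, and KTR3 (-0.42) and SEC53, of mannose activation, (-0.29) lowest. PMT6 (0.53) and PMT3 (0.06) were also highest with alpha factor, and MNT2 (-0.47) and MNT3 (-0.29) lowest. KEX2 itself stood at -0.10 and -0.14.

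Genes that make or remodel beta-1,3-glucan had a median of 0.12 over 12 measured genes in the deletion comparison, with none past 1.5-fold. FKS1, the main glucan synthase subunit, stood at 0.49 and the glucanase gene EXG2 at 0.31, against -0.33 for GSC2 and -0.30 for GAS3. With alpha factor the median over 11 genes was -0.04, and 1 gene, GAS3 (-0.70), was at least 1.5-fold lower. RHO1 (0.42) and GSC2 (0.31) were highest there, and KNR4 stood at -0.45.

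**Figure D4:**
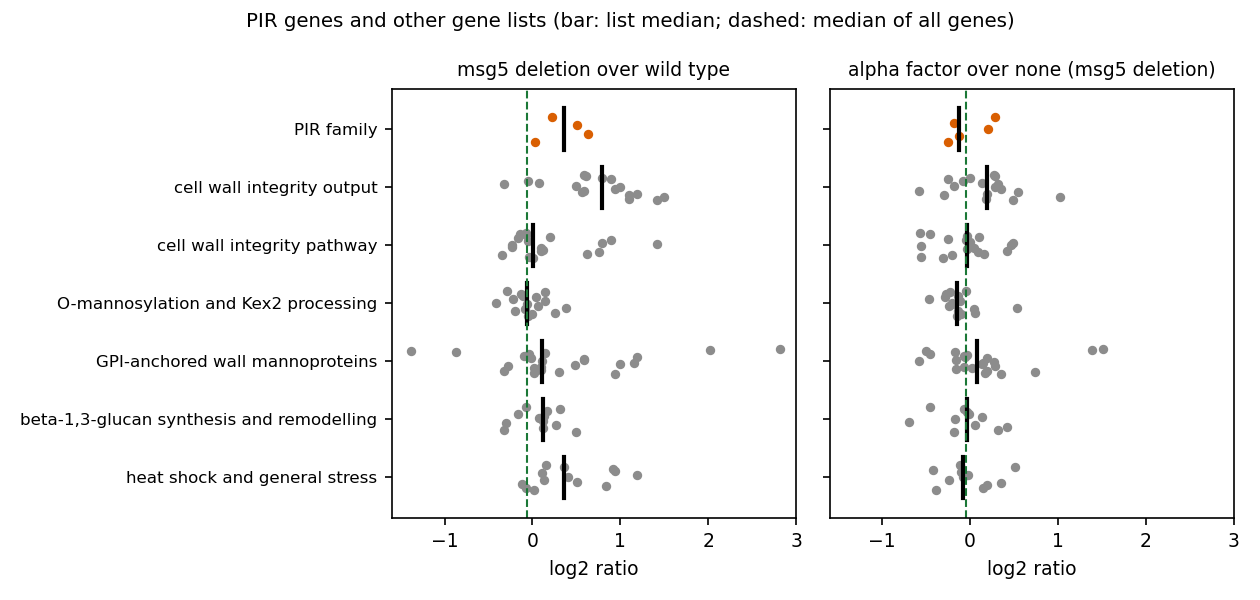
Log2 ratios (horizontal axis) of single genes, 1 point each, in the PIR family (orange) and in 6 other lists (grey) for the deletion comparison (left) and alpha factor (right), with black bars for list medians and a dashed line for the median of all genes. The PIR median of 0.36 in the deletion lies below that of the integrity output genes (0.79), and with alpha factor the PIR median is -0.12.

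Heat shock and general stress genes had a median of 0.36 over 13 measured genes in the deletion comparison, equal to the PIR median at this precision. The plasma membrane protein gene HSP30 (1.19) was at least 2-fold higher, 4 genes were at least 1.5-fold higher and none was lower by that factor. TPS2, of trehalose synthesis, stood at 0.94, HSP104 at -0.12 and HSP26 at -0.08. With alpha factor the median over 11 genes was -0.08 and none passed 1.5-fold, with DDR2 (0.51) and HSP78 (0.36) highest and TSL1 (-0.42) and HSP12 (-0.39) lowest.

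Among factors of these programmes, RLM1 was the only one of 9 measured past 1.5-fold in the deletion comparison. MSN4, a stress factor, stood at 0.52 and its relative MSN2 at -0.02. SWI5 had values of -0.13 in the deletion and -0.31 after alpha factor, and SWI4, of the G1 factor SBF, of -0.06 and -0.05. STE12, of the mating response, had -0.26 and -0.12, SKN7 -0.35 and -0.12, HSF1, the heat shock factor, -0.22 and 0.21, and MCM1 -0.13 and -0.43. RLM1 stood at -0.00 with alpha factor, where MSN2 (-0.60) was the only one of 8 measured past 1.5-fold. SWI6 had no value, and MSN4 none with alpha factor.

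Pheromone response genes spanned a wide range that overlapped the PIR values. FIG1, a mating gene of calcium uptake, had values of 3.33 in the deletion and 2.38 after alpha factor. KAR4 had 0.88 in both, FUS1 0.66 and 0.57, BAR1 0.65 and 0.55, FUS3 0.38 and 0.42, and STE2, the pheromone receptor, 0.11 and 0.25. Of 4 genes that mark cells of the opposite mating type, alpha, 2 had values: SAG1 stood at 1.17 and 0.34 and MF(ALPHA)2 at 0.42 and 0.37. Their part in the PIR values was not tested.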

How the data were processed

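The authors scanned and segmented the arrays with GenePix Pro 5.0, per the labels, and condensed 4 arrays per comparison into the deposited log2 ratios. How the ratios were normalized or filtered, and on which genome build, is not given in the sources used here. In the deletion column all 5310 values fell on base 2 logarithms of ratios with steps of 0.001 (100%, chance 7.52%). With alpha factor 7.97% did (chance 7.52%), so base 2 was taken there from the other column; the interquartile ranges of the columns were 0.29 and 0.30.

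Of 6207 gene features, 5654 matched R64 RefSeq names by locus tag and 57 by an older name. Features of a gene were averaged. Values, folds, ranks and counts at 2-fold and 1.5-fold were computed with Python 3.11.15, pandas 2.3.3 and numpy 2.4.6, with no test. Adjustment functions were tested on simulated data.

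Named genes were the members, MSG5, the 3 nearest genes per member, neighbours of the loci, list members past 2-fold, the 2 highest and 2 lowest of each list, and all listed factors, check genes and alpha-cell genes. Further genes past 1.5-fold, genes close to a PIR value and KEX2, BCK1 and MKK2 were added after their values were seen. Members and lists were chosen with earlier results of these data known. Promoter and protein sequences were not used here, and 1 list of genes and 1 factor are not reported here.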

Additional observations from a re-analysis of the deposited data

How the results depend on the processing

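Centring on the median of all genes, subtracting the median of the same of 10 length groups, and subtracting a running median over 200 features in table order moved every PIR value and both family medians by at most 0.11. HSP150 ranged from 0.63 to 0.71 in the deletion comparison and the family median from 0.36 to 0.44. With alpha factor HSP150, which was also the family median, ranged from -0.12 to -0.01. Means over members were 0.35 and -0.01. Without HSP150 or PIR3 the family median in the deletion was 0.22, and without PIR1 or CIS3 it was 0.51. With alpha factor it ranged from -0.16 to 0.04, above 0 without PIR1, CIS3 or HSP150. At 1.5-fold in place of 2-fold, 1 PIR gene was higher in the deletion instead of 0. With the sign of the alpha factor column turned, PIR1 stood at 0.25, HSP150 at 0.12, PIR3 at -0.20, CIS3 at 0.19 and PIR5 at -0.28. If that column were in base 10, PIR5 would be 1.92-fold and PIR3 1.60-fold higher, CIS3 1.54-fold and PIR1 1.78-fold lower; in base e PIR5 would be 1.33-fold higher. The stress list had 2 genes at least 2-fold higher in place of 1 after centring or adjustment for length. The mean of the GPI-anchored list in the deletion comparison was 0.37 and those of the pheromone genes 1.15 and 0.92, against medians of 0.11, 0.66 and 0.57. No paired analysis was possible because each comparison has 1 condensed value per gene, and for the same reason leaving out a replicate was not possible. Spot intensities were not used here, so signal over background is unknown.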
